A study of Mus musculus with 18 samples.

Results

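The genes described here are 36 genes of glycolysis and of the response to low oxygen, followed across the 6 groups of a microarray study of RAW264.7 cells, a mouse macrophage line. They were chosen by name, and a gene was measured through the probe sets annotated to its symbol. Probe sets passing a filter on low signals stood for 31 of the 36 genes, among 11547 genes tested in all. Control cells received solvent (0.1% DMSO, called vehicle below). Treated cells received 10 ug/mL of a sub-fraction made from the herb Hypericum perforatum, or a mixture of 4 plant compounds. The mixture held amentoflavone at 0.07 uM, quercetin at 0.08 uM, chlorogenic acid at 0.2 uM and pseudohypericin at 0.03 uM. Each of these treatments was given alone or with 10 ug/mL lipopolysaccharide (LPS), a bacterial cell wall component sensed by Toll-like receptor 4. Cells of all groups were kept in high-glucose medium, treated for 8 h, and exposed to ambient light for 30 min after dosing in the dark. Each group had 3 arrays, 18 in all. Whether arrays of 1 group were separate cultures is not stated in the labels, and a p-value then reflects only how these samples varied, which may be technical variation. The cells are a single line in culture, and the labels name no oxygen level.

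Glycolysis converts glucose to pyruvate and lactate. Glucose enters through GLUT transporters, is trapped by hexokinases and committed by phosphofructokinase, and lactate leaves through monocarboxylate transporters. Hypoxia-inducible factor 1 (HIF-1) is a transcription factor whose alpha subunit is hydroxylated by prolyl hydroxylases when oxygen is present and is then degraded. When stabilised it raises most glycolytic genes together with Vegfa, Bnip3, Adm, Ankrd37 and other targets. Macrophages activated by LPS are known to shift their metabolism towards glycolysis, and LPS can raise HIF-1 in them without a fall in oxygen.

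Of the 5 members that were not tested, Gpi1 and Eno1 had no probe set annotated to them here. Gapdh, the glyceraldehyde-3-phosphate dehydrogenase gene, had 3 control probe sets and 3 annotated to another symbol as well, and neither kind entered the test. The control probe set at its 3′ end had mean intensities of 20015 ± 1647, 21992 ± 2078 and 24154 ± 2766 in vehicle, fraction and mixture cells without LPS, and 21998 ± 1000.2, 24012 ± 1964 and 24984 ± 712 with LPS. Egln3, a prolyl hydroxylase gene, and P4ha2, a collagen prolyl hydroxylase gene, lay below the filter, with group means from 2.37 to 34.3 and from 2.24 to 13.0. The deposited values are linear signal intensities, and array medians lay between 52.1 and 66.8. Levels of different genes cannot be ranked by them, since probe sets differ in response. Changes are log2 differences of group means ± standard error from limma, with p-values adjusted by the Benjamini-Hochberg method over the 11547 genes and a threshold of 0.05. The mean intensities are given ± SD over 3 arrays. The probe sets for Slc2a3, Hk3, Aldoa, Tpi1, Adm and Ndrg1 were of kinds that can bind related transcripts. For 20 members several probe sets were kept, and 0 of them had probe sets called in opposite directions.

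The arrays were alike in scaling, each with a trimmed mean of 500, and the lowest correlation between arrays of 1 group was 0.970. Of the 10 macrophage markers all 10 were detected, with a summed signal from 78479 to 114811. With LPS 6 of the 10 were called higher in vehicle cells (10.1% of all genes), 5 in fraction cells (11.5%) and 5 in mixture cells (8.32%). With the fraction 2 were higher (15.9%) without LPS, and 3 higher (11.1%) and 1 lower (12.7%) with it. Of 24 markers of other cell types, 22 had a probe set and 5 passed the filter. Their summed signal was 385 to 637 in the 3 groups without LPS, 637 to 857 with vehicle plus LPS and 489.7 to 689 in the other 2 groups with LPS, and 0 to 4 of them reached the array median in a group. Of these 5, only Epcam, an epithelial marker, was called with LPS in vehicle cells (at least 2.15-fold higher, 1.75 ± 0.46, adjusted p = 0.00604). That is 20% of the 5, beside 10.1% of all genes higher. With LPS in fraction or mixture cells 0 of the 5 were called. The part of either marker list in the results was not tested. Fewer cells of a type and less RNA per cell cannot be told apart in these bulk samples.

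Replicate 3 of the fraction group without LPS stood apart for the members, glycolysis genes as well as hypoxia genes. It was the highest of its 3 arrays for 27 of the 31 members, against 38.3% of all genes. Other arrays were uneven too. Replicate 1 of that group was highest for 1 member (28.3% of all genes), and vehicle replicate 1 for 2 members (35.7%). The values below are those of fraction replicate 3. For 4 members that array lay at least 1 log2 unit above both other fraction arrays, namely Adm and Ankrd37 (each by 2.28), Bnip3 (1.87) and Pfkfb3 (1.24). Of all genes 1.07% did so. That array also had the highest 3′ to 5′ ratio of the Actb control, a sign of RNA quality, at 1.32 against 1.16 to 1.30 on the other 17 arrays. Its 3′ to 5′ ratio of the Gapdh control, 0.833, lay inside the range of all arrays, from 0.821 to 0.863. The part of RNA quality in these values was not tested. Bnip3, a mitophagy gene, read 1147, 1900.2 and 6969 on the fraction arrays against 1717, 2250.2 and 2615 in vehicle. Ankrd37, an ankyrin repeat protein gene and hypoxia target, read 129.8, 166 and 809 against 265, 366 and 375. For both genes the other 2 fraction arrays lay within or below the vehicle range while replicate 3 lay far above it. Replicate 1 of vehicle plus LPS lay at least 1 log2 unit below its group for Pfkfb3 (by 1.77) and Slc16a3 (by 1.01), as did 2.16% of all genes. On the main axis of variation over all tested genes (first principal component), replicate 1 of vehicle plus LPS lay at 21.8. The other arrays of its group lay at 41.3 and 38.8, and the mixture plus LPS arrays at 21.6 to 28.3. Member calls gained or lost without fraction replicate 3 or without vehicle plus LPS replicate 1 are stated where they occur.

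**Figure D1:**
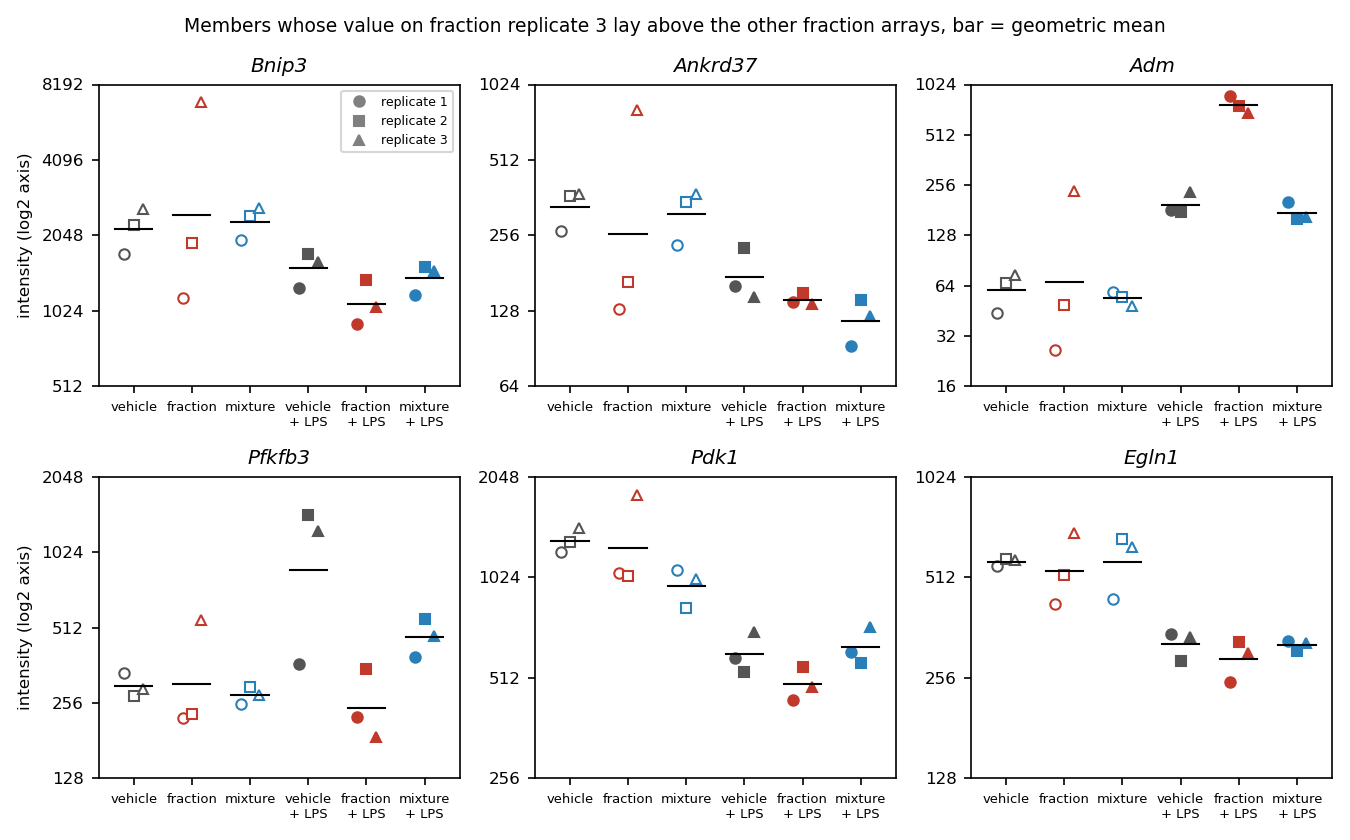
Signal intensity of Bnip3, Ankrd37, Adm, Pfkfb3, Pdk1 and Egln1 on each of the 18 arrays on a log2 axis, by group, with circles, squares and triangles for replicates 1, 2 and 3, open symbols without LPS, filled symbols with LPS, and bars at the geometric mean. In the fraction group without LPS the triangle lies above the other 2 arrays for all 6 genes, for Bnip3 at 6969 on replicate 3 against 1147 on replicate 1.

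HIF-1 binds a short core, ACGTG or GCGTG, and the upstream sequences of 7 members are shown to place these letters beside the values. Pfkp, Ero1a, Hk3 and Vegfa were raised by the fraction with and without LPS, and Bnip3, Ankrd37 and Adm are the targets for which replicate 3 of the fraction group lay furthest above the other fraction arrays. Promoters came from RefSeq (build GRCm38.p6, 250 bases before and 50 after each transcription start) and were found for 34 of the 36 genes, 48 promoters in all. There was none for Slc2a3 and Ndrg1. The 250 bases before the start are printed 5′ to 3′ on the gene's strand, with every match to the core or its reverse complement (CACGT or CACGC) in capitals, where overlapping matches merge into 1 run. Adm lies on the plus strand at chr7:110627407-110627656. The others lie on the minus strand: Bnip3 at chr7:138909507-138909756, Ankrd37 at chr8:45999851-46000100, Pfkp at chr13:6648772-6649021, Ero1a at chr14:45318573-45318822, Hk3 at chr13:55021386-55021635 and a Vegfa start at chr17:46032378-46032627.
Bnip3: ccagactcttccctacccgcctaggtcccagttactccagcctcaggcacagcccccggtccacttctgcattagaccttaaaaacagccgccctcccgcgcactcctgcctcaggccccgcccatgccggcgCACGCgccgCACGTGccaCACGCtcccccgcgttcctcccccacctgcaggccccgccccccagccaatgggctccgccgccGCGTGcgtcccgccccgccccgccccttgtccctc
Ankrd37: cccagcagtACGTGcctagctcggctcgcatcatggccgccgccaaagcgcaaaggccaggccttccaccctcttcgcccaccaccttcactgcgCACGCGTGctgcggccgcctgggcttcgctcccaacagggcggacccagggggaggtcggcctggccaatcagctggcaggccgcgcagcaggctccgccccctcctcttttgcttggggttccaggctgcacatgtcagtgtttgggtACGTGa
Adm: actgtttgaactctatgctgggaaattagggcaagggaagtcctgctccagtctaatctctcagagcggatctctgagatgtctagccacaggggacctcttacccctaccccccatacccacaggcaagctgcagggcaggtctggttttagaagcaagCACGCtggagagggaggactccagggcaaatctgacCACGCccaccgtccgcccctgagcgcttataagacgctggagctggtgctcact
Pfkp: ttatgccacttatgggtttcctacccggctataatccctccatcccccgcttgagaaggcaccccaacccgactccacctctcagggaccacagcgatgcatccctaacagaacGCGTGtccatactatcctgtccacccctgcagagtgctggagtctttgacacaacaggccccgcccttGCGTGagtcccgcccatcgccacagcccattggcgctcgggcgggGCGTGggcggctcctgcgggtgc
Ero1a: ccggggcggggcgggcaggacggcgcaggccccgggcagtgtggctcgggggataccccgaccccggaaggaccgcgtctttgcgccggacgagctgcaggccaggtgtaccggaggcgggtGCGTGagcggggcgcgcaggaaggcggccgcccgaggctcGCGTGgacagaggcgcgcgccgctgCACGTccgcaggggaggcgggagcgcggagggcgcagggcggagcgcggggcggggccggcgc
Hk3: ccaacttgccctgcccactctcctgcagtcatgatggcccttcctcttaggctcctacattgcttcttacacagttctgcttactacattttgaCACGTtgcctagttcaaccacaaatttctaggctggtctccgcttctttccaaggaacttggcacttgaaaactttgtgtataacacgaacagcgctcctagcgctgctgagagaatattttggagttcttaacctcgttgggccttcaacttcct
Vegfa: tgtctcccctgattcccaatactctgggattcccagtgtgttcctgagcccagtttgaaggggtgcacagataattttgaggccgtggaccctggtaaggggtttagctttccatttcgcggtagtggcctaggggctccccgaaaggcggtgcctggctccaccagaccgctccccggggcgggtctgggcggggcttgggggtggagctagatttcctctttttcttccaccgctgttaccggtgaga
Bnip3 and Ankrd37 hold 5 and 4 matches in these 250 bases, Adm 2, Pfkp and Ero1a 3 each, Hk3 1 and this Vegfa start 0. A second Vegfa start, whose upstream bases are chr17:46025164-46025413, holds 2. Slc16a1 and P4ha1, which were lower with the fraction with and without LPS and are not printed, hold 4 and 3. Over the full 300 bases the core was present in 39 of 48 member promoters (81.2%), in 61.3% of the promoters of tested genes and in 43.8% of all 32851 promoters. Counted by gene, 31 of 34 members (91.2%) had it in at least 1 promoter, against 67.2% of tested genes. A consensus NF-kB site, read on both strands, was in 0 of 48 member promoters and in 0.411% of all, and a CHOP and ATF4 element (TGATGNAAT, both strands) in 0 of 48 and 0.965%. These are matches of letters only and were not tested as binding sites.

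The first comparison asked how LPS changed these genes in vehicle cells. LPS raised the gene of the peptide hormone adrenomedullin, the glycolytic activator Pfkfb3, the glucose transporter Slc2a1 and hexokinase 2. It lowered Pdk1, Egln1, Pfkm and Slc2a3. Of the 31 members, 6 were higher and 4 lower, while 10.1% of all tested genes were higher and 21.8% lower. The median member was at -0.06 and the median gene at -0.07. After centring each array on the median of the kept probe sets, a shift of 0.12 in the median gene, 8 members were higher and 3 lower. All tested genes moved too, from 1161 higher and 2519 lower to 1727 and 1574.

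**Figure D2:**
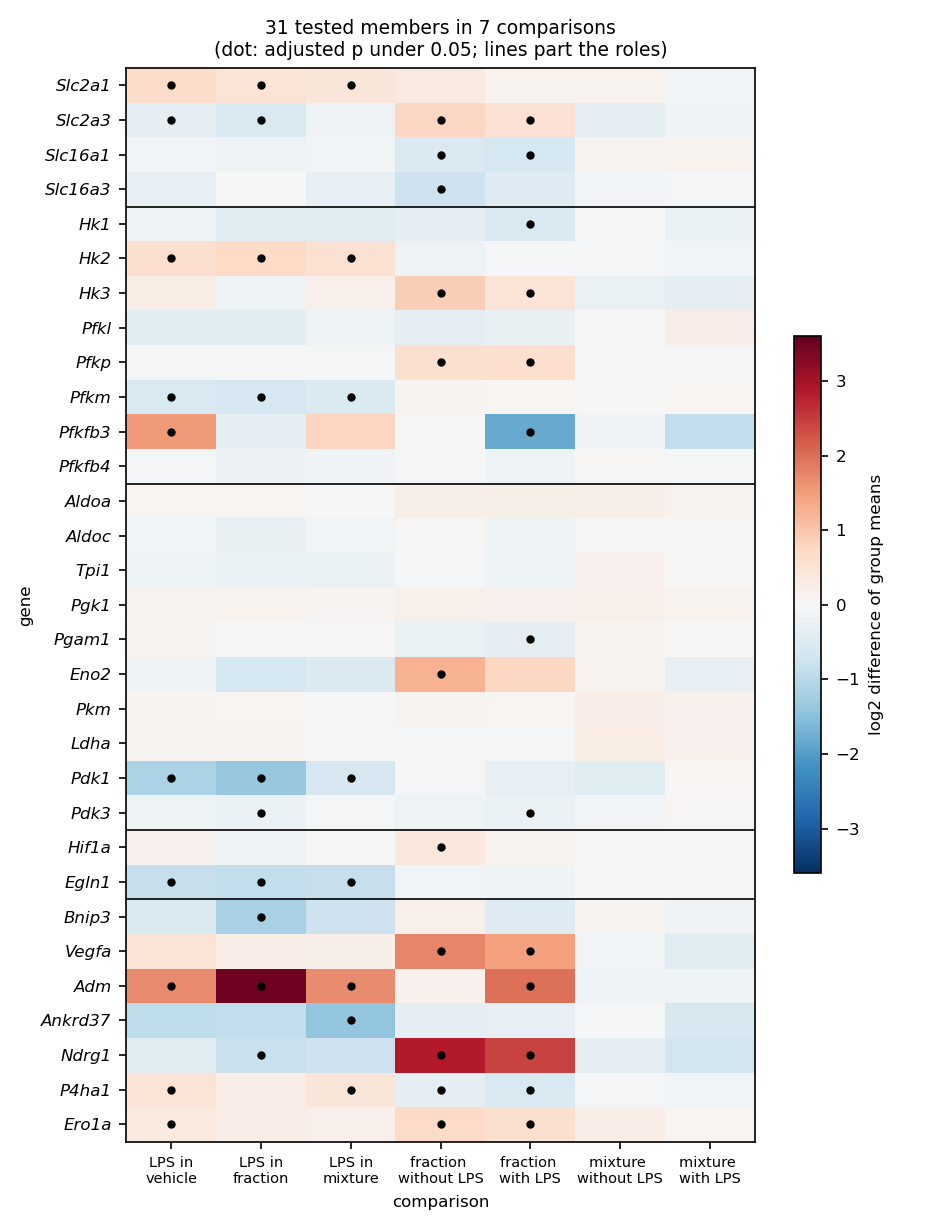
Log2 differences of the 31 tested members in 7 comparisons (LPS within vehicle, fraction and mixture cells, and fraction or mixture against vehicle without and with LPS), colours from lower to higher, with a dot where the adjusted p is under 0.05. The columns of mixture against vehicle hold 0 dots, and Ndrg1 is the highest member in both fraction columns, at 2.86 and 2.43.

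Among the transporters, Slc2a1, which encodes the basal glucose carrier GLUT1, read 5359.7, 6774 and 7134 on the vehicle arrays and 8497, 11177 and 11039.5 with LPS. It rose 1.59-fold (0.67 ± 0.15, adjusted p = 0.00189), and every LPS array lay above every vehicle array, as for 1694 of all 11547 genes. Slc2a3, the gene of the high-affinity carrier GLUT3, went the other way, from 1965 ± 265 to 1539.9 ± 136 (-0.35 ± 0.11, adjusted p = 0.0221). Its call was lost without vehicle replicate 2 (-0.25 with an adjusted p of 0.123), without vehicle replicate 3 (-0.34 with an adjusted p of 0.0576) or without vehicle plus LPS replicate 1 (-0.27 with an adjusted p of 0.0908), and under quantile normalization (-0.29 with an adjusted p of 0.0635) or centring on kept probe sets (-0.22 with an adjusted p of 0.183). The lactate and pyruvate carrier gene Slc16a1 was at -0.09 ± 0.09 (adjusted p = 0.48), or called lower under quantile normalization (-0.29 with an adjusted p of 0.0165), and the lactate exporter gene Slc16a3 at -0.30 ± 0.27 (adjusted p = 0.445).

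In the committed and regulatory steps, Hk2, an inducible hexokinase bound to mitochondria, rose from 3184, 3865 and 4148 to 4966, 6009 and 5908 (1.51-fold, 0.60 ± 0.14, adjusted p = 0.00284). Pfkfb3 makes fructose 2,6-bisphosphate, the main activator of phosphofructokinase. It read 336, 273 and 289.8 in vehicle and 365, 1439 and 1247 with LPS (2.91-fold, 1.54 ± 0.39, adjusted p = 0.00463). The groups did not overlap, but replicate 1 of vehicle plus LPS barely cleared the vehicle range. Without that array Pfkfb3 was at 2.17 with an adjusted p of 1.6e-05. Pfkm, the muscle-type phosphofructokinase, fell from 406 ± 19.6 to 277 ± 18.2 (1.47-fold, -0.56 ± 0.14, adjusted p = 0.0058). The liver and platelet types did not pass, with Pfkl at -0.41 ± 0.21 (adjusted p = 0.138) and Pfkp at -0.03 ± 0.12 (adjusted p = 0.886). Pfkl did pass when the replicate number entered the limma fit as a block (adjusted p of 0.0285). The reversible enzymes Aldoa, Aldoc, Tpi1, Pgk1, Pgam1 and Eno2 and the terminal enzymes Pkm (pyruvate kinase) and Ldha (lactate dehydrogenase A) did not pass in this comparison, and Ldha was at 0.11 ± 0.10 (adjusted p = 0.416). Tpi1, at -0.14 ± 0.10, was called lower under quantile normalization (-0.33 with an adjusted p of 0.00318). Aldoa, Tpi1, Pgk1, Pgam1, Pkm, Ldha, Slc2a1 and Slc16a1 were brighter than 95% of all genes, with array maxima from 26264 to 41310, and whether a ceiling of the signal limits their differences was not tested.

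Pdk1, a kinase that shuts off pyruvate dehydrogenase and so limits the oxidation of pyruvate in mitochondria, fell most among the members. It read 1219, 1305 and 1441 in vehicle and 586, 533 and 704 with LPS, a 2.19-fold fall without overlap (-1.13 ± 0.17, adjusted p = 5.6e-05). Of all 11547 genes, 3102 lay lower without overlap. The oxygen sensor gene Egln1, which encodes the prolyl hydroxylase that marks HIF-1 alpha for degradation, fell from 553, 581 and 578 to 345, 288 and 339 (1.77-fold, -0.82 ± 0.17, adjusted p = 8.9e-04). Hif1a itself was at 0.16 ± 0.09 (adjusted p = 0.205). It was called higher after centring on kept probe sets (0.28 with an adjusted p of 0.0306), and another of its probe sets was called higher (0.39 with an adjusted p of 0.0319).

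Among the other hypoxia targets, Adm, a vasodilator peptide gene, read 44.1, 66.1 and 73.9 in vehicle and 182, 177 and 232 with LPS. It rose 3.26-fold (1.71 ± 0.48, adjusted p = 0.00981) from levels near the array medians. P4ha1, a collagen prolyl hydroxylase gene, rose 1.40-fold (0.48 ± 0.10, adjusted p = 0.00127). Ero1a, an oxidase for disulfide formation in the endoplasmic reticulum, rose 1.28-fold (0.35 ± 0.12, adjusted p = 0.0326). The Ero1a call was lost without vehicle replicate 2 (0.35 with an adjusted p of 0.0726) or 3 (0.33 with an adjusted p of 0.0896), without vehicle plus LPS replicate 1 (0.32 with an adjusted p of 0.0849) or 2 (0.36 with an adjusted p of 0.0756), under quantile normalization (0.32 with an adjusted p of 0.0566), without the intensity trend, and after median centring over all probe sets (0.22 with an adjusted p of 0.162). Vegfa, the vascular growth factor gene, was at 0.50 ± 0.19 (adjusted p = 0.053), and at 0.77 with an adjusted p of 0.00155 without replicate 1 of vehicle plus LPS. It also passed under quantile normalization (0.60 with an adjusted p of 0.0228), centring on kept probe sets (0.63 with an adjusted p of 0.0166) and the replicate block (adjusted p of 0.0329). Bnip3, Ankrd37 and Ndrg1 were at -0.51 ± 0.39, -0.92 ± 0.43 and -0.38 ± 0.30 and did not pass. Ankrd37 did after median centring (-1.06 with an adjusted p of 0.0398) and Ndrg1 with the replicate block (adjusted p of 0.0407). Of these targets Adm, P4ha1 and Ero1a passed, all higher, and the other 4 did not.

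**Figure D3:**
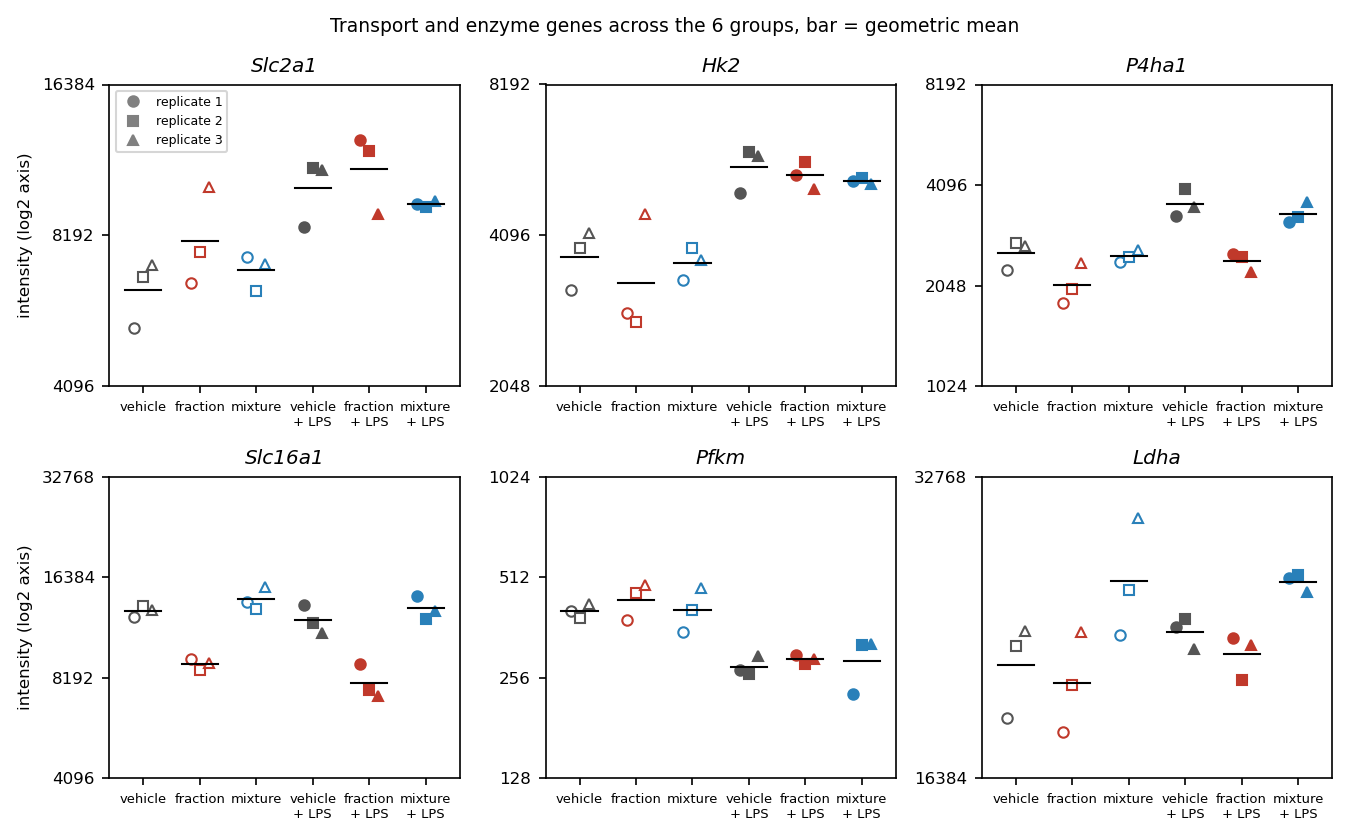
Signal intensity of Slc2a1, Hk2, P4ha1, Slc16a1, Pfkm and Ldha on each of the 18 arrays on a log2 axis, by group, with circles, squares and triangles for replicates 1, 2 and 3, open symbols without LPS, filled symbols with LPS, and bars at the geometric mean. Hk2 with LPS lies at 4966 or above in vehicle cells against 4148 or below without, and Slc16a1 on the fraction arrays lies at 9319 or below.

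The LPS response was also measured in fraction-treated and mixture-treated cells, which share no array with the vehicle comparison or with each other. In fraction cells 3 members were higher (11.5% of all genes) and 7 lower (25.8%), with a median member of -0.19 and a median gene of -0.11. In mixture cells 4 were higher (8.32% of genes) and 4 lower (16.3%). The split depended on the scaling, and the split of all genes moved as well. In fraction cells all genes were at 1330 higher and 2979 lower before rescaling. After quantile normalization 2 members were higher and 11 lower there (1482 and 2572 genes). Centring on kept probe sets, a shift of 0.16 in the median gene, gave 6 and 5 members (2223 and 1792 genes). In mixture cells quantile normalization gave 3 and 5 members (1047 and 1642 genes, from 961 and 1883). Slc2a1, Hk2 and Adm were higher in all 3 settings, which is 50% of the 6 called in vehicle cells, 100% of the 3 in fraction cells and 75% of the 4 in mixture cells. Of all genes called higher, the like shares were 53.9%, 47.1% and 65.1%, and 5.42% of all genes tested were higher in all 3. Pfkm, Pdk1 and Egln1 were lower in all 3 (75%, 42.9% and 75% of the members called lower). Of all genes called lower, the like shares were 53.4%, 45.1% and 71.4%, and 11.6% of all genes tested were lower in all 3.

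Adm had the largest LPS rise of the members in fraction cells, from 26.3, 49.0 and 237 to 874, 760.2 and 687 (11.4-fold, 3.51 ± 0.48, adjusted p = 9.6e-06). Without fraction replicate 3 the call held (adjusted p of 1.3e-09). The remaining fraction arrays then lay under their array medians of 58.7 and 58.0, so the rise was at least 13.2-fold. In mixture cells Adm rose at least 2.93-fold, from 58.8, 54.8 and 48.4 to 203, 160.2 and 164 (1.70 ± 0.48, adjusted p = 0.013). Hk2 was at 0.72 ± 0.14 and 0.54 ± 0.14 in fraction and mixture cells. Slc2a1 was at 0.48 ± 0.15 (adjusted p = 0.017) and 0.44 ± 0.15 (adjusted p = 0.0392). The Slc2a1 call in fraction cells was lost without fraction replicate 1 (0.34 with an adjusted p of 0.11) or 2 (0.44 with an adjusted p of 0.0598) and without fraction plus LPS replicate 1 (0.39 with an adjusted p of 0.0862) or 2 (0.42 with an adjusted p of 0.0651), and under quantile normalization (0.31 with an adjusted p of 0.0838). In mixture cells it was lost under quantile normalization (0.34 with an adjusted p of 0.0836), median centring, no filter and no trend, and without any 1 of the 6 arrays, with values from 0.37 with an adjusted p of 0.142 (mixture replicate 2) to 0.48 with an adjusted p of 0.0527 (mixture replicate 1).

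P4ha1, called with LPS in mixture cells (0.43 ± 0.10, adjusted p = 0.00464), was at 0.24 ± 0.10 (adjusted p = 0.0744) in fraction cells and at 0.35 with an adjusted p of 0.0139 there without fraction replicate 3. Ero1a was at 0.23 ± 0.12 (adjusted p = 0.152) in fraction cells and at 0.40 with an adjusted p of 0.00658 without that array. Under quantile normalization Slc16a1 (-0.35 with an adjusted p of 0.00422), Tpi1 (-0.42 with an adjusted p of 3.1e-04), Pgam1, Pkm and Hif1a (-0.25 with an adjusted p of 0.0311) were also lower, and after centring on kept probe sets P4ha1 (0.40 with an adjusted p of 0.00825), Ero1a (0.39 with an adjusted p of 0.0146) and Pgk1 (0.29 with an adjusted p of 0.0397) were higher. Other members passed as lower with LPS in fraction cells when 1 array was left out: Pfkl (-0.57 with an adjusted p of 0.0469), Tpi1 (-0.36 with an adjusted p of 0.0112) and Ankrd37 (-1.37 with an adjusted p of 0.0173) without fraction replicate 1, Slc16a1 (-0.28 with an adjusted p of 0.0221) without fraction plus LPS replicate 1, and Hk1 (-0.50 with an adjusted p of 0.0277) without fraction plus LPS replicate 2.

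The falls with LPS in fraction cells were led by Pdk1, from 1052, 1036 and 1799.8 to 439.9, 552 and 482 (2.56-fold, -1.35 ± 0.17, adjusted p = 5.1e-06). Egln1 fell 1.84-fold (-0.88 ± 0.17) from 425, 519.5 and 697 to 248, 327 and 303. Pfkm (-0.59 ± 0.14) and Slc2a3 (-0.56 ± 0.11, adjusted p = 5.1e-04) were lower too. Without fraction replicate 3, Pdk1 was at -1.09 with an adjusted p of 1.4e-05 and Egln1 at -0.69 with an adjusted p of 0.00333. The Bnip3 fall rested on that array: the groups overlapped at 1147, 1900.2 and 6969 and 908, 1355 and 1062 (-1.18 ± 0.39, adjusted p = 0.0231), and without it Bnip3 was at -0.43 with an adjusted p of 0.139. The Bnip3 call was also lost without fraction plus LPS replicate 1 (-1.05 with an adjusted p of 0.0808) or 3 (-1.16 with an adjusted p of 0.0583). Ndrg1, a stress-responsive gene raised by low oxygen, was 1.75-fold lower (-0.81 ± 0.30, adjusted p = 0.0382). Its call was lost without fraction replicate 2 (-0.76 with an adjusted p of 0.0986) or 3 (-0.70 with an adjusted p of 0.12) and without fraction plus LPS replicate 1 (-0.69 with an adjusted p of 0.125) or 3 (-0.76 with an adjusted p of 0.1), and after centring on kept probe sets (-0.65 with an adjusted p of 0.103). Pdk3, another pyruvate dehydrogenase kinase, was at -0.24 ± 0.08 (adjusted p = 0.0277), with the call lost without fraction replicate 2 (-0.22 with an adjusted p of 0.0837) or 3 (-0.21 with an adjusted p of 0.0895) and without fraction plus LPS replicate 1 (-0.21 with an adjusted p of 0.0915) or 2 (-0.24 with an adjusted p of 0.0584), and after quantile normalization (-0.16 with an adjusted p of 0.164) or either centring (-0.25 with an adjusted p of 0.175 over all and -0.07 with an adjusted p of 0.572 over kept probe sets).

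In mixture cells Ankrd37 fell 2.67-fold with LPS, from 234, 348 and 376 to 92.5, 141 and 122 (-1.42 ± 0.43, adjusted p = 0.0209). The groups did not overlap, as for 2994 of all 11547 genes that lay lower. The Ankrd37 call was lost without mixture replicate 2 (-1.34 with an adjusted p of 0.0659) or 3 (-1.29 with an adjusted p of 0.0755) or mixture plus LPS replicate 1 (-1.25 with an adjusted p of 0.0774). Egln1 fell from 442, 665 and 631 to 329.9, 308 and 326 (-0.83 ± 0.17, adjusted p = 0.0011). Pdk1 was at -0.61 ± 0.17 (adjusted p = 0.014), and its call was lost without mixture replicate 1 (-0.53 with an adjusted p of 0.0622) or mixture plus LPS replicate 2 (-0.54 with an adjusted p of 0.0678). Pfkm was at -0.51 ± 0.14 (adjusted p = 0.0133), lost without mixture replicate 3 (-0.40 with an adjusted p of 0.0774) or mixture plus LPS replicate 1 (-0.35 with an adjusted p of 0.0895). Without mixture replicate 1, Tpi1 (-0.32 with an adjusted p of 0.0484) and Ndrg1 (-0.98 with an adjusted p of 0.0334) passed as lower, as did Hk1 (-0.51 with an adjusted p of 0.0447) without mixture plus LPS replicate 2. Tpi1 also passed under quantile normalization (-0.34 with an adjusted p of 0.00285). The replicate block brought Ndrg1 (-0.73 with an adjusted p of 5.6e-04), Hk1 (-0.41 with an adjusted p of 0.0111) and Tpi1 (-0.24 with an adjusted p of 0.0222) past the threshold.

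The next comparison asked what the Hypericum fraction did to these genes in cells without LPS. It raised Ndrg1 and Vegfa most, with Eno2, Hk3, Slc2a3, Ero1a, Pfkp and Hif1a, and lowered the lactate carriers Slc16a3 and Slc16a1 and the hydroxylase gene P4ha1. In counts, 8 of the 31 members were higher and 3 lower, beside 15.9% of all genes higher and 15.3% lower, with medians of 0.04 and 0.02. After centring on kept probe sets 8 were higher and 5 lower, while all genes went from 1837 higher and 1771 lower to 1344 and 2274. Of the enzymes from aldolase to lactate dehydrogenase, Eno2 passed and the others did not. Pkm was at 0.10 ± 0.09 (adjusted p = 0.447), Pgk1 at 0.17 ± 0.09 and Ldha at -0.06 ± 0.10 (adjusted p = 0.69). Under quantile normalization Ldha was called lower (-0.21 with an adjusted p of 9.3e-04).

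Ndrg1 read 487, 895 and 987 in vehicle and 4414, 5864 and 6395 with the fraction, 7.27-fold higher (2.86 ± 0.30, adjusted p = 5.4e-07). The lowest fraction array was far above the highest vehicle array. All 5 of its probe sets were higher, by 2.61 to 3.11. Vegfa went from 259, 234 and 264 to 739, 815 and 1014 (3.37-fold, 1.75 ± 0.19, adjusted p = 1.2e-06), again without overlap. Both held without fraction replicate 3, at 2.75 with an adjusted p of 7.9e-06 and 1.62 with an adjusted p of 1.6e-05. Of all 11547 genes, 2568 were higher and 2382 lower with the fraction with no overlap between these groups.

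Hif1a, the oxygen-regulated subunit gene, read 5526, 5147 and 6323 in vehicle and 7445, 6938 and 7680.04 with the fraction (1.30-fold, 0.38 ± 0.09, adjusted p = 0.00315). After median centring over all probe sets, a shift of -0.13 in the median gene, Hif1a was at 0.25 with an adjusted p of 0.0715. Ero1a rose from 3675, 3519.7 and 3410.5 to 4932, 5154 and 7235 (1.61-fold, 0.69 ± 0.12, adjusted p = 2.6e-04).

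Among the glycolytic genes, Slc2a3 rose from 1693, 2222 and 1981 to 3217, 3364 and 3212 (1.67-fold, 0.74 ± 0.11, adjusted p = 4.5e-05). Hk3, a hexokinase of myeloid cells, rose from 307, 407 and 415 to 656, 787 and 616 (1.83-fold, 0.87 ± 0.16, adjusted p = 3.0e-04). Pfkp, the platelet-type phosphofructokinase, rose from 3596, 4421 and 4675 to 5294, 6222 and 7487 (1.49-fold, 0.58 ± 0.12, adjusted p = 0.00118). All 3 fraction arrays lay above all 3 vehicle arrays for each of these genes. The other carrier and hexokinase genes did not pass, with Slc2a1 at 0.33 ± 0.15 (adjusted p = 0.114), Hk1 at -0.32 ± 0.15 (adjusted p = 0.121) and Hk2 at -0.18 ± 0.14 (adjusted p = 0.385). Without fraction replicate 1, Slc2a1 was at 0.47 with an adjusted p of 0.0341. Aldoa was then at 0.29 with an adjusted p of 0.0327 and Pgk1 at 0.26 with an adjusted p of 0.0472. Eno2, the neuronal enolase gene, was dim, at 51.3, 65.3 and 49.6 in vehicle and 83.1, 116 and 227 with the fraction (at least 2.35-fold, 1.24 ± 0.36, adjusted p = 0.0129). Its call was lost without fraction replicate 3 (0.84 with an adjusted p of 0.104).

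Slc16a1 fell from 12462, 13451 and 13059 to 9319, 8659 and 9051 (1.44-fold, -0.53 ± 0.09, adjusted p = 1.8e-04), with no overlap. Slc16a3 read 1409.9, 1997 and 1728 in vehicle and 769.8, 896 and 1530.3 with the fraction, so the groups overlapped through fraction replicate 3 (1.66-fold, -0.73 ± 0.27, adjusted p = 0.0483). Without that array it was at -1.03 with an adjusted p of 0.00896, and the call was lost without fraction replicate 1 (-0.53 with an adjusted p of 0.207) or 2 (-0.64 with an adjusted p of 0.147) or vehicle replicate 2 (-0.62 with an adjusted p of 0.163) or 3 (-0.72 with an adjusted p of 0.102), and by quantile normalization (-0.75 with an adjusted p of 0.0512), no filter, no trend or every probe set. P4ha1 was at -0.32 ± 0.10 (adjusted p = 0.0239) with overlapping groups, and its call was lost without vehicle replicate 2 (-0.27 with an adjusted p of 0.098) or 3 (-0.29 with an adjusted p of 0.0819) or fraction replicate 1 (-0.23 with an adjusted p of 0.135) or 2 (-0.30 with an adjusted p of 0.0744).

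Leaving out fraction replicate 3 brought 3 further members past the threshold as lower with the fraction: Ankrd37 from -0.35 ± 0.43 to -1.17 with an adjusted p of 0.00164, Hk2 from -0.18 ± 0.14 to -0.40 with an adjusted p of 0.00851 and Pgam1, the phosphoglycerate mutase gene, from -0.24 ± 0.09 to -0.38 with an adjusted p of 0.00164. Pgam1 was at -0.32 with an adjusted p of 0.0183 without vehicle replicate 1, and was also called lower under quantile normalization (-0.28 with an adjusted p of 0.00319) and after centring over all (-0.37 with an adjusted p of 0.0247) or kept probe sets (-0.33 with an adjusted p of 0.0239). Pdk3 was called lower after centring on kept probe sets (-0.28 with an adjusted p of 0.0244). Bnip3 was at 0.20 ± 0.39 with all arrays and at -0.55 with an adjusted p of 0.0703 without that one, short of the threshold. Adm was at 0.17 ± 0.48 with all arrays, and without that one it lay under the array medians in the fraction group, with an adjusted p of 0.0509. For Bnip3, Adm and Ankrd37, replicate 3 of the fraction group lay above the vehicle mean and the other 2 fraction arrays below it.

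**Figure D4:**
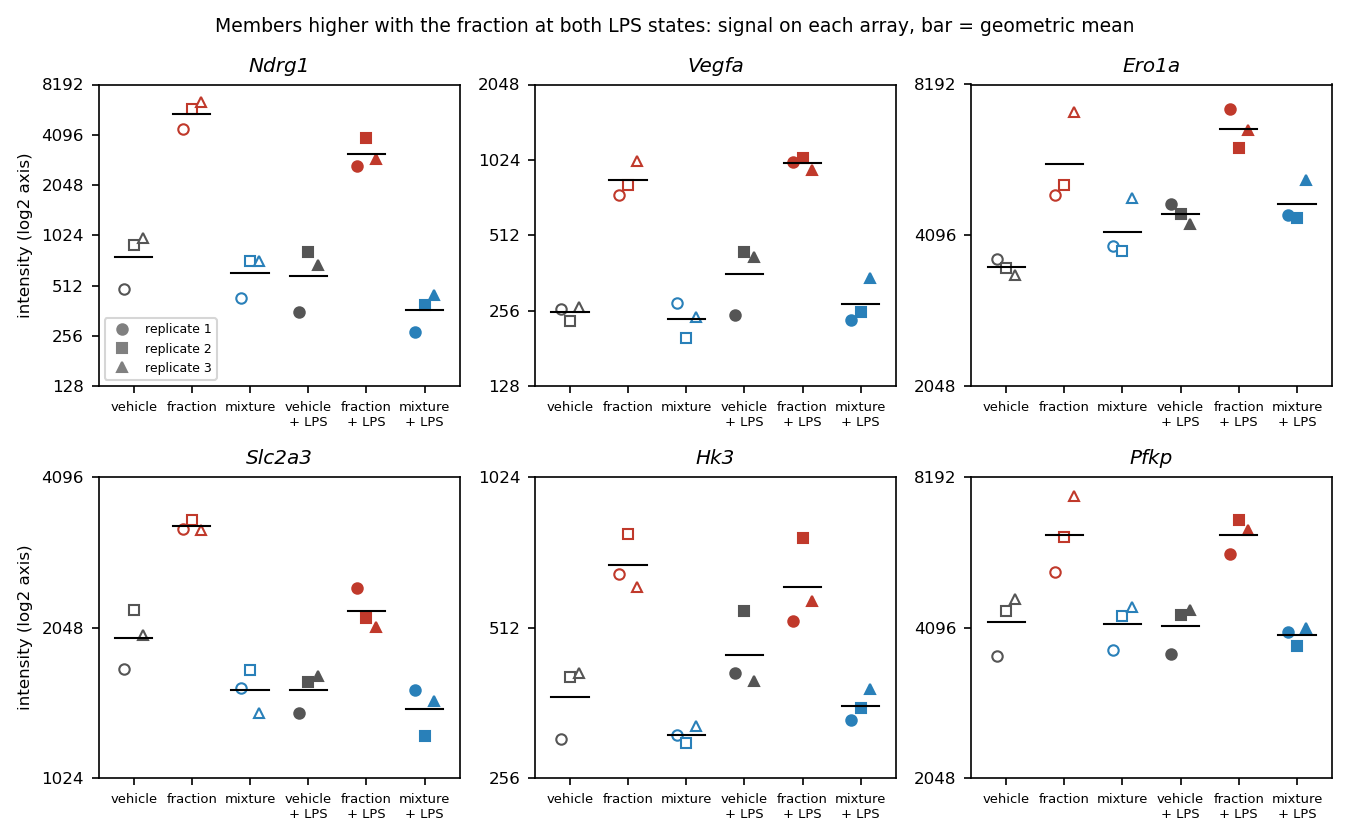
Signal intensity of Ndrg1, Vegfa, Ero1a, Slc2a3, Hk3 and Pfkp on each of the 18 arrays on a log2 axis, by group, with circles, squares and triangles for replicates 1, 2 and 3, open symbols without LPS, filled symbols with LPS, and bars at the geometric mean. For Ndrg1 the fraction arrays lie from 4414 to 6395 without LPS, above the vehicle arrays, which reach 987, and the mixture arrays overlap the vehicle arrays.

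With LPS present, the fraction was compared with vehicle plus LPS. Ndrg1, Adm and Vegfa were highest among the members that rose, with Pfkp, Ero1a, Slc2a3 and Hk3. Pfkfb3, Slc16a1, P4ha1, Hk1, Pgam1 and Pdk3 were lower. That made 7 of 31 higher (11.1% of all genes) and 6 lower (12.7%), with medians of -0.07 and -0.02. These arrays are not shared with the comparison without LPS. Slc2a3, Hk3, Pfkp, Vegfa, Ndrg1 and Ero1a were higher in both, 75% of the 8 called without LPS and 85.7% of the 7 called with it. Of all genes called higher, the like shares were 50.2% and 72.1%, and 7.99% of all genes tested were higher in both. Slc16a1 and P4ha1 were lower in both, 66.7% of 3 and 33.3% of 6. Of all genes called lower, the like shares were 53.2% and 64.4%, and 8.17% of all genes tested were lower in both. In opposite directions 0 members were called.

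Ndrg1 read 355, 809.9 and 679 with vehicle plus LPS and 2677, 3935 and 2927 with fraction plus LPS (5.41-fold, 2.43 ± 0.30, adjusted p = 7.6e-06), and its 5 probe sets were higher by 1.87 to 2.85. Vegfa read 247, 439 and 421 and 1005, 1041 and 936 (2.78-fold, 1.47 ± 0.19, adjusted p = 1.8e-05). Adm read 182, 177 and 232 and 874, 760.2 and 687 (3.94-fold, 1.98 ± 0.48, adjusted p = 0.00486). In all 3 genes each fraction array exceeded each vehicle array, as in 2010 of all 11547 genes. Ero1a (0.56 ± 0.12, adjusted p = 0.00222), Pfkp (0.61 ± 0.12, adjusted p = 0.00115) and Slc2a3 (0.53 ± 0.11, adjusted p = 0.00182) rose 1.48-fold, 1.52-fold and 1.44-fold. Hk3 overlapped between groups, at 416, 553 and 401 and 526, 774 and 578 (0.45 ± 0.16, adjusted p = 0.0451). Its call was lost without vehicle plus LPS replicate 1 (0.39 with an adjusted p of 0.133) or 3 (0.36 with an adjusted p of 0.158) or fraction plus LPS replicate 2 (0.29 with an adjusted p of 0.231) or 3 (0.50 with an adjusted p of 0.0651), after quantile normalization (0.43 with an adjusted p of 0.0645) or either centring (0.45 with an adjusted p of 0.109 over all and 0.40 with an adjusted p of 0.0908 over kept probe sets), and with no filter, no trend or every probe set. Hif1a was at 0.10 ± 0.09 (adjusted p = 0.497), although 1 of its other probe sets was called higher at 0.53. Ldha, at -0.07 ± 0.10, was called lower under quantile normalization (-0.21 with an adjusted p of 0.00128).

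Pfkfb3 fell most, from 365, 1439 and 1247 with vehicle plus LPS to 225, 349 and 187 with fraction plus LPS (3.55-fold, -1.83 ± 0.39, adjusted p = 0.00186). The fraction plus LPS arrays, at 187 to 349, spanned the range of vehicle cells without LPS, at 273 to 336. Without replicate 1 of vehicle plus LPS the difference was -2.45 with an adjusted p of 1.3e-05. Slc16a1 fell from 13537, 11981 and 11138 to 9034, 7545 and 7244 (1.54-fold, -0.62 ± 0.09, adjusted p = 5.6e-05) and P4ha1 from 3592 ± 345 to 2429 ± 157 (-0.56 ± 0.10, adjusted p = 5.5e-04). Pgam1 was at -0.35 ± 0.09 (adjusted p = 0.00878), from 13441 ± 579 to 10518 ± 376. Hk1, the housekeeping hexokinase, overlapped at 1975, 3205 and 3006 and 1841, 2112 and 1568 (-0.55 ± 0.15, adjusted p = 0.0124). Its call was lost without vehicle plus LPS replicate 2 (-0.42 with an adjusted p of 0.0791) or 3 (-0.46 with an adjusted p of 0.0596) or fraction plus LPS replicate 3 (-0.44 with an adjusted p of 0.0777). Pdk3 was at -0.25 ± 0.08 (adjusted p = 0.0323), lost without vehicle plus LPS replicate 2 (-0.20 with an adjusted p of 0.136) or fraction plus LPS replicate 1 (-0.22 with an adjusted p of 0.106) or 2 (-0.25 with an adjusted p of 0.0659), and after median centring (-0.25 with an adjusted p of 0.225). Without replicate 1 of vehicle plus LPS, Slc16a3 (-0.82 with an adjusted p of 0.0229) and Pfkl (-0.54 with an adjusted p of 0.0478) also passed as lower.

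The interaction asked whether the LPS change differed between fraction and vehicle cells. It was called for 0 of 31 members by limma, where 2.14% of all genes were called. At an unadjusted p under 0.05 there were 3 members and 1566 genes (13.6%). Pfkfb3 came closest, with an LPS change lower by 1.86 in fraction cells (-1.86 ± 0.55, adjusted p = 0.0935). Its LPS change was 1.54 ± 0.39 in vehicle and -0.32 ± 0.39 in fraction cells. Without replicate 1 of vehicle plus LPS the Pfkfb3 interaction was -2.48 with an adjusted p of 0.0016. It also passed in the limma fit with the replicate number as a block (adjusted p of 0.0383). Adm was at 1.81 ± 0.68 (adjusted p = 0.216). Without fraction replicate 3 Adm passed (adjusted p of 7.5e-04), but that call rests on 2 fraction arrays under their array medians, and its size is not given. Hif1a was at -0.28 ± 0.13 (adjusted p = 0.329).

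The comparison of the mixture with vehicle asked whether its 4 compounds changed these genes. By limma 0 of 31 members passed without LPS (0% of all genes) and 0 with LPS (0%). The lowest adjusted p of a member was 0.814 without LPS and 0.589 with it. At an unadjusted p under 0.05 there were 5 members and 565 genes (4.89%) without LPS, and 3 members and 934 genes (8.09%) with it. The 95% interval of the difference from vehicle lay within 1 log2 unit of 0 for 30 members without LPS and for 26 with LPS, and within 0.5 for 21 and 20. A 2-fold change by the mixture thus lay outside the interval for 30 and 26 of the 31 members, and smaller changes lay inside many intervals.

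Without LPS the intervals that left out 0 were those of Slc2a3 at -0.35 (95% interval -0.58 to -0.12), Pdk1 at -0.45 (95% interval -0.81 to -0.08), Ldha at 0.28 (95% interval 0.08 to 0.48), Pkm at 0.24 (95% interval 0.05 to 0.43) and Aldoa at 0.20 (95% interval 0.0037 to 0.41). With LPS they were those of Pfkfb3 at -0.89 (95% interval -1.70 to -0.08), Ndrg1 at -0.67 (95% interval -1.29 to -0.05) and Hk3 at -0.34 (95% interval -0.67 to -0.01). Pfkfb3 with mixture plus LPS read 390.3, 555 and 474, and without replicate 1 of vehicle plus LPS its difference from vehicle was -1.52 with an adjusted p of 0.0148. Ndrg1 read 429, 721 and 714 with the mixture alone and 272, 393 and 452 with mixture plus LPS, and Vegfa 274, 199.7 and 242 and 234, 252 and 345. For both genes the mixture arrays overlapped the vehicle arrays of the same LPS state. The interaction of mixture and LPS was called for 0 members (0% of genes), with 0 members and 412 genes at an unadjusted p under 0.05.

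**Figure D5:**
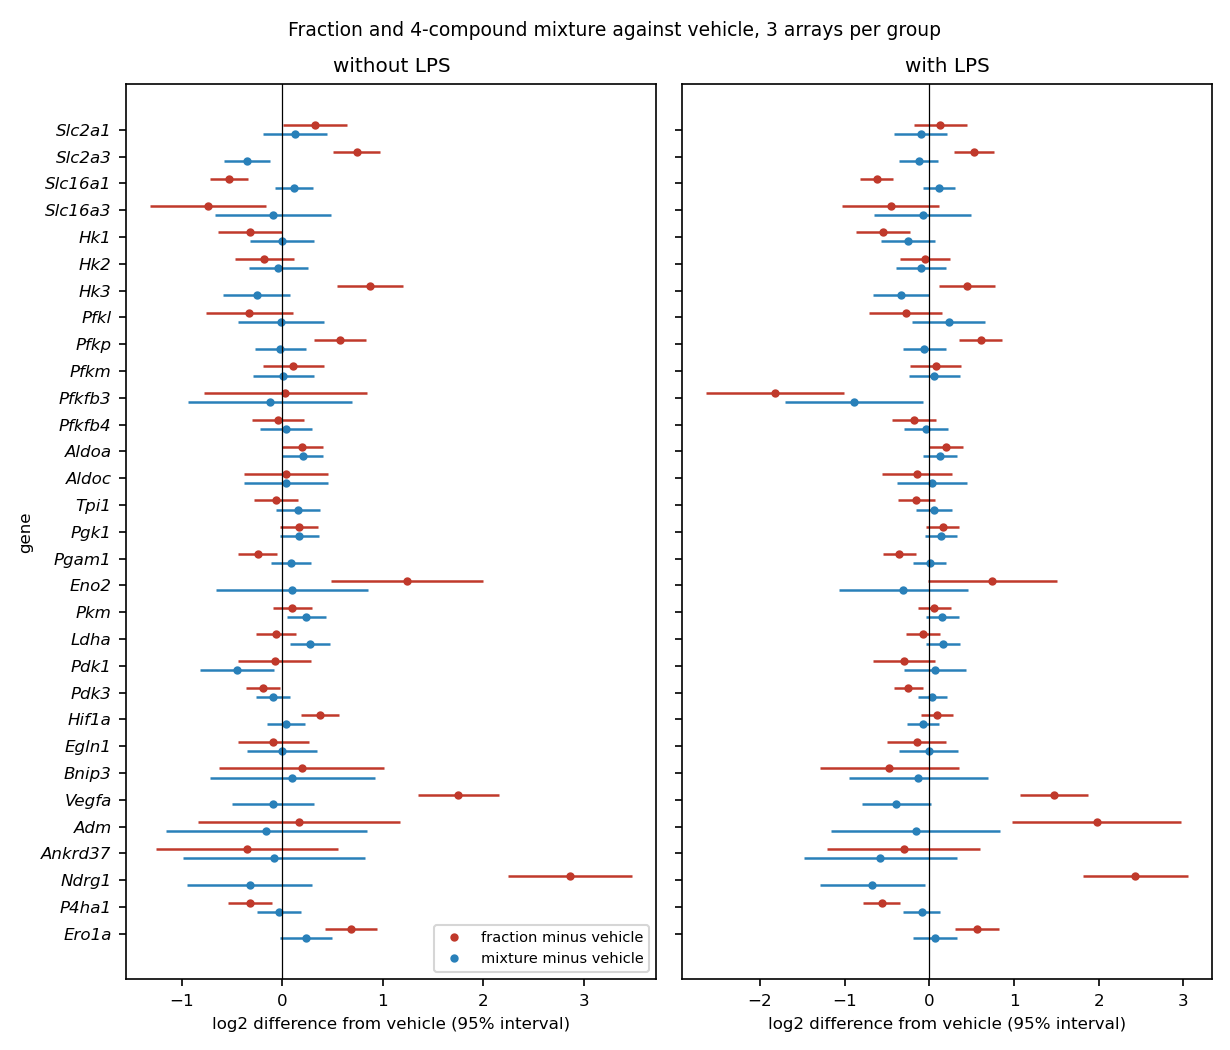
Log2 differences from vehicle of the 31 tested members with 95% intervals, for the fraction and the mixture, without LPS and with LPS. Without LPS the fraction lies at 2.86 for Ndrg1 and 1.75 for Vegfa, while 30 of the 31 mixture intervals lie within 1 log2 unit of 0.

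The fraction was also compared directly with the mixture. Without LPS 8 members were higher with the fraction (17.0% of all genes) and 4 lower (15.4%). Centring on kept probe sets gave 7 and 7, while all genes went from 1962 higher and 1781 lower to 1399 and 2439. With LPS 8 members were higher (12.0%) and 4 lower (16.2%). Ndrg1 was 9.08-fold higher without LPS (3.18 ± 0.30, adjusted p = 1.3e-07) and 8.61-fold with it (3.11 ± 0.30, adjusted p = 2.7e-07). Vegfa was 3.58-fold (1.84 ± 0.19, adjusted p = 6.2e-07) and 3.64-fold higher (1.86 ± 0.19, adjusted p = 8.0e-07). Adm with LPS was 4.41-fold higher, at 774 ± 94.2 against 176 ± 24.0 (2.14 ± 0.48, adjusted p = 0.00226). Slc2a3 (1.09 ± 0.11 without LPS, 0.65 ± 0.11 with LPS), Hk3 (1.13 ± 0.16, 0.79 ± 0.16), Pfkp (0.59 ± 0.12, 0.67 ± 0.12) and Ero1a (0.45 ± 0.12, 0.50 ± 0.12) were higher in both states. The Ero1a difference without LPS was 0.28 with an adjusted p of 0.0599 without fraction replicate 3. Hif1a was higher without LPS (0.34 ± 0.09, adjusted p = 0.00712), and at 0.24 with an adjusted p of 0.0609 after centring on kept probe sets and 0.31 with an adjusted p of 0.0609 with the arrays numbered 1 left out. With LPS it was at 0.17 ± 0.09 (adjusted p = 0.181), while another of its probe sets was called higher (0.70 with an adjusted p of 0.00136).

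The dim enolase gene Eno2 was at least 2.18-fold higher without LPS (1.14 ± 0.36, adjusted p = 0.0203) and at least 1.45-fold with it (1.05 ± 0.36, adjusted p = 0.0358). Without fraction replicate 3 it was at 0.74 with an adjusted p of 0.149, and without mixture replicate 3 at 1.08 with an adjusted p of 0.0587. With LPS its call was lost without fraction plus LPS replicate 2 (0.71 with an adjusted p of 0.201), mixture plus LPS replicate 1 (0.90 with an adjusted p of 0.123) or replicate 2 (1.08 with an adjusted p of 0.0693), and with median centring (0.98 with an adjusted p of 0.063) or no filter.

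Slc16a1 was lower with the fraction than with the mixture, at -0.65 ± 0.09 without LPS (adjusted p = 2.1e-05) and -0.74 ± 0.09 with it (adjusted p = 6.1e-06). P4ha1 was at -0.29 ± 0.10 (adjusted p = 0.04) and -0.47 ± 0.10 (adjusted p = 0.00195). The P4ha1 call without LPS was lost without any 1 of fraction replicates 1 and 2 and mixture replicates 1 to 3, with values from -0.20 with an adjusted p of 0.203 (fraction replicate 1) to -0.31 with an adjusted p of 0.055 (mixture replicate 1), and also with median centring (-0.30 with an adjusted p of 0.105), no filter or no trend. Pgam1 was at -0.33 ± 0.09 (adjusted p = 0.00975) and -0.36 ± 0.09 (adjusted p = 0.00659), and at -0.24 with an adjusted p of 0.0702 without LPS when fraction replicate 1 was left out. Ldha was called without LPS, from 25958 ± 3569 with the mixture to 20481 ± 2364 with the fraction (-0.34 ± 0.10, adjusted p = 0.01), and was lost without fraction replicate 1 (-0.26 with an adjusted p of 0.0646) or mixture replicate 3 (-0.23 with an adjusted p of 0.0725). Pdk3 was called with LPS (-0.28 ± 0.08, adjusted p = 0.0135) and lost without fraction plus LPS replicate 1 (-0.25 with an adjusted p of 0.0544) and after median centring (-0.35 with an adjusted p of 0.0646). Ldha with LPS was at -0.24 ± 0.10 (adjusted p = 0.0685), and was called lower under quantile normalization (-0.22 with an adjusted p of 6.8e-04) and median centring (-0.31 with an adjusted p of 0.0467). Pfkfb3 with LPS was at -0.94 ± 0.39 (adjusted p = 0.0817). Without fraction plus LPS replicate 2 it was at -1.19 with an adjusted p of 0.048 and Pfkl at -0.67 with an adjusted p of 0.0333.

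Leaving out fraction replicate 3 turned Bnip3 in this comparison, from 0.09 ± 0.39 (adjusted p = 0.887) to -0.65 with an adjusted p of 0.0314. Ankrd37 was then at -1.09 with an adjusted p of 0.00277, Slc16a3 at -0.94 with an adjusted p of 0.0155, Hk2 at -0.37 with an adjusted p of 0.0155 and Tpi1, the triosephosphate isomerase gene, at -0.33 with an adjusted p of 0.0182. After centring on kept probe sets Slc16a3 (-0.74 with an adjusted p of 0.047), Hk1 (-0.43 with an adjusted p of 0.0483) and Tpi1 (-0.31 with an adjusted p of 0.0455) were called lower.

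Genes around the pathway were read from 4 further lists, to be set against the shares of all genes called higher and lower, which were 10.1% and 21.8% with LPS in vehicle cells. The same shares were 15.9% and 15.3% with the fraction when LPS was absent, and 11.1% and 12.7% when it was present. Of the other glycolysis and glucose-handling genes, 20 of 29 were tested, with 2 higher (10%) and 8 lower (40%) with LPS in vehicle cells, 2 (10%) and 3 (15%) with the fraction without LPS, and 1 (5%) and 3 (15%) with it. Tigar, which lowers fructose 2,6-bisphosphate, fell 2.07-fold with the fraction without LPS (-1.05 ± 0.11, adjusted p = 8.4e-07) and was at -0.77 ± 0.11 with LPS. The glycogen synthase gene Gys1 rose with the fraction without LPS (0.96 ± 0.23, adjusted p = 0.00302) and with LPS (0.65 ± 0.23), where it was at 0.67 with an adjusted p of 0.0769 without replicate 1 of vehicle plus LPS. Gpd2, the mitochondrial glycerol phosphate dehydrogenase gene, was at -0.57 ± 0.10 without LPS, Minpp1 at -0.57 ± 0.10 without and -0.44 ± 0.10 with LPS, and Pgm1 at -0.43 ± 0.16 with LPS. Among the called genes the largest changes with LPS in vehicle cells were the pyruvate carrier Slc16a7 (-1.06 ± 0.26), the glycogen phosphorylase Pygb (-0.95 ± 0.14), the glucose carrier Slc2a6 (0.89 ± 0.18) and Bpgm (-0.89 ± 0.24, or -1.26 with an adjusted p of 3.2e-05 without replicate 1 of vehicle plus LPS).

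Of the genes that control pyruvate entry into mitochondria, 9 of 12 were tested, with 1 higher (11.1%) and 2 lower (22.2%) with LPS in vehicle cells, 2 (22.2%) and 1 (11.1%) with the fraction without LPS, and 1 and 1 (11.1% each) with it. Pdp2, a phosphatase that switches pyruvate dehydrogenase on, fell with the fraction in both states (-1.11 ± 0.17 without and -1.09 ± 0.17 with LPS), and Dld, a subunit of that complex, rose in both (0.74 ± 0.08 and 0.59 ± 0.08). Pdhb, another subunit, was at 0.38 ± 0.07 without LPS. Pdp1 fell with LPS in vehicle cells (-1.02 ± 0.17), where Dld was at 0.32 ± 0.08 and Pdha1 at -0.28 ± 0.08.

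Of the pentose phosphate genes 9 of 11 were tested, with 1 higher (11.1%) and 2 lower (22.2%) with LPS in vehicle cells, and 0 and 3 (33.3%) with the fraction in each state. Prps2 (-0.53 ± 0.13 without and -0.45 ± 0.13 with LPS), Rpia (-0.47 ± 0.10 and -0.46 ± 0.10) and Prps1 (-0.30 ± 0.07 and -0.27 ± 0.07) fell with the fraction, where Prps2 with LPS was at -0.39 with an adjusted p of 0.0559 without replicate 1 of vehicle plus LPS. With LPS in vehicle cells H6pd was at -0.80 ± 0.21, Prps2 at -0.69 ± 0.13 and Rpe at 0.39 ± 0.09.

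Of the other hypoxia regulators and targets 28 of 33 were tested, with 5 higher (17.9%) and 4 lower (14.3%) with LPS in vehicle cells, 4 (14.3%) and 5 (17.9%) with the fraction without LPS, and 2 (7.14%) and 5 (17.9%) with it. The shares for the fraction without LPS lie near those of all genes. Edn1, the endothelin 1 gene, read 5.62, 6.94 and 8.23 in vehicle and 168, 897 and 959 with LPS (at least 9.52-fold, 6.26 ± 0.67). The bound was 16.8-fold with replicate 1 of vehicle plus LPS left out. Flt1, a VEGF receptor gene, was at 1.18 ± 0.23 (without replicate 1 of vehicle plus LPS 1.54 with an adjusted p of 2.8e-06), Epas1, the HIF-2 alpha gene, at -1.08 ± 0.26 and Mxi1 at -0.98 ± 0.12. With the fraction without LPS, Ddit4, a stress-induced inhibitor of mTORC1, read 208, 197 and 212 in vehicle and 601, 824 and 1170.2 (4.06-fold, 2.02 ± 0.25, adjusted p = 4.2e-06). Stc2 (1.01 ± 0.17) and Bhlhe40 (1.16 ± 0.26, 0.76 with an adjusted p of 0.0131 without fraction replicate 3) were higher. Ak4, an adenylate kinase gene, was lower (-1.08 ± 0.35) at 248, 476 and 1269 on the fraction arrays, and at -1.71 with an adjusted p of 1.7e-05 without fraction replicate 3. With LPS the fraction raised Ddit4 (1.45 ± 0.25, 1.11 with an adjusted p of 0.00111 without replicate 1 of vehicle plus LPS) and Stc2 (1.05 ± 0.17) and lowered Plod1 (-0.58 ± 0.14) and Vhl (-0.47 ± 0.12), the gene of the ligase subunit that targets HIF-1 alpha for degradation. Of the 66 genes of these 4 lists, 0 were called by limma for the mixture against vehicle or for either interaction. At an unadjusted p under 0.05 there were 8 and 8 for the mixture without and with LPS, beside 4.89% and 8.09% of all genes. For the interactions of fraction and mixture there were 9 and 3, beside 13.6% and 3.57% of all genes. Replicate 3 of the fraction group was the highest of its 3 arrays for 16 of 28 genes of the hypoxia list, 11 of 20 of the glycolysis list, 5 of 9 of the pyruvate list and 3 of 9 of the pentose phosphate list, against 38.3% of all genes.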

How the data were processed

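Total RNA of 18 RAW264.7 samples was hybridized to Affymetrix Mouse 430 2.0 arrays after one-cycle biotin labelling, per the labels' protocols. The deposited values are linear signal intensities made by the authors with MAS5, per the submitters' processing notes, whose version is not given in the sources used here. Of 45101 probe sets, 64 controls were left out, 34945 carried 1 gene symbol, 932 several and 9160 none. Intensities under 1 (0.823%) were set to 1 before log2. Probe sets at or above the median of their array on 3 or more of 18 arrays were kept (25612), and the brightest kept probe set stood for each of 11547 genes. The test was limma 3.58.1 in R 4.3.3, over all 6 groups together with eBayes and an intensity trend (12 residual degrees of freedom, two-sided), and was tested on simulated data. Folds are ratios of geometric means, and a group under its array median was set to that median and the fold given as "at least". Every member past the threshold was named, per-array values went to changes of at least 1 or among the 4 largest, and other lists gave up to 4 genes per comparison. The members and lists were chosen with earlier results of these data known. Alternatives were a replicate block, quantile normalization, median centring, other filters and floors, no trend, every probe set and arrays left out. Centring on kept probe sets was added after seeing the data.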

Additional observations from a re-analysis of the deposited data

How the results depend on the processing

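Across the alternatives, 76 calls of members in a comparison were followed, of which 49 were kept under every setting run, 27 were lost under at least 1, and 0 changed direction while called. The count of called members in the LPS response of mixture cells was 8, and 5 to 8 when 1 array was left out (5 without mixture replicate 3 or mixture plus LPS replicate 1). The counts with 1 array left out were 8 to 10 for LPS in vehicle cells, 7 to 12 for LPS in fraction cells, 9 to 13 and 11 to 14 for the fraction without and with LPS, and 9 to 15 and 11 to 13 for the fraction against the mixture. For the mixture with LPS the count of 0 became 1 (Ndrg1) with the arrays numbered 1 left out together and was 0 to 1 with 1 array left out (Pfkfb3). For the interaction of fraction and LPS it became 1 (Pfkfb3, adjusted p of 0.0383) with the replicate block and 1 with the arrays numbered 1 left out, and was 0 to 1 with 1 array left out. Scaling moved the split of all genes: for LPS in vehicle cells from 1161 higher and 2519 lower to 669 and 2939 after median centring and 1727 and 1574 after centring on kept probe sets, and for the fraction without LPS from 1837 and 1771 to 938 and 1959 or 1344 and 2274. After centring on kept probe sets the split went from 1330 and 2979 to 2223 and 1792 for LPS in fraction cells, from 961 and 1883 to 1331 and 1244 for LPS in mixture cells, and from 1962 and 1781 to 1399 and 2439 for the fraction against the mixture without LPS. With the replicate number as a block the counts of called members were 13, 15 and 11 for LPS in vehicle, fraction and mixture cells, 15 and 14 for the fraction without and with LPS, 0 for the mixture in both states and 16 for the fraction against the mixture in both. These block counts and the counts with 1 array left out were not set beside the counts over all genes. They do not single out the members. With LPS the block added Pfkl, Vegfa and Ndrg1 in vehicle cells and Ndrg1, Hk1 and Tpi1 in mixture cells. In fraction cells it added Hk1, Pfkl, Aldoc, Tpi1 and P4ha1. The labels do not say what a replicate number shares. Deviations of arrays with the same number correlated by a median of 0.088 (9 of 45 pairs over 0.1) and of different numbers by -0.037 (0 of 90 pairs over 0.1). All 18 arrays correlated best with their own number, a structure read from the data alone. No pairing was assumed, so the main test leaves this shared part in its spread. With the 6 arrays numbered 1 left out together, the calls of Ero1a with LPS in vehicle cells, Hk2 and Pdk1 with LPS in mixture cells, P4ha1 for the fraction without LPS, Hk3 and Pdk3 with LPS, and Pgam1 and Ero1a against the mixture were among those lost. Precision was limited by 3 arrays per group and by signal near the array medians for Eno2 and Adm.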
